A study of Homo sapiens with 12 samples.

Results

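The BCL-2 family of proteins controls the release of cytochrome c from mitochondria, the step that starts the intrinsic apoptosis pathway. Its mRNAs were examined here in HCT116, a human colorectal carcinoma cell line, through 10 genes chosen by name from the 58037 genes of the deposited count table: *BCL2*, *BCL2L1*, *MCL1*, *BAX*, *BAK1*, *BBC3*, *PMAIP1*, *BID*, *BCL2L11* and *BAD*. All 10 were found in the table. The RNA-seq experiment used poly(A)-selected RNA from HCT116 cells of WT genotype exposed for 8 h to DMSO, the vehicle, to 10 μM Nutlin-3a, to 20 nM NVP-2 or to both compounds, with 3 samples in each of the 4 conditions. Nutlin-3a stabilizes p53 by keeping it from MDM2, and NVP-2 inhibits CDK9, the kinase of P-TEFb. In the table as analysed here, the 12 columns named for these samples were identical, with 0 genes differing between them. The columns were therefore counted as 1 sample, an HCT116 profile of unknown treatment with a total of 22720718 counts. No effect of a drug can be estimated from 1 profile, and whether the levels below depend on the treatment could not be tested. The spread between cultures is not known, and every interval is a 95% interval that covers counting error only.

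The family is divided by role. Pro-survival members hold the pore formers in check, the effectors BAX and BAK permeabilize the outer mitochondrial membrane, and BH3-only members bind pro-survival proteins, or in some cases the effectors directly, and thereby promote death. All of them share the BH3 motif, a short helix that in the pro-apoptotic members can fit into a groove on the surface of pro-survival proteins. Several of the pro-apoptotic genes, among them *BAX*, *BBC3* and *PMAIP1*, are textbook targets of p53. A cell of this kind can express members of each role at the same time, and what decides its fate is which proteins are bound to each other. The mRNA levels given here describe the transcripts of these genes, and protein was not measured.

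The stretches of coding sequence below show what the 10 members have in common at the core of the BH3 motif and where they differ. They were read from GENCODE version 44, in which every gene has 1 canonical transcript. The search asked for a leucine codon, any 3 codons, a glycine codon and an aspartate codon, in the reading frame of the coding strand only. Where no such stretch was present, alanine or serine was allowed in place of glycine. The capitals mark the leucine codon, the glycine, alanine or serine codon, and the aspartate codon, and each sequence runs 5′ to 3′ on the strand of the gene.
BCL2: CTCcgccaggccGGCGACgac
BCL2L1: CTGagggaggcaGGCGACgag
MCL1: TTAcgacgggttGGGGATggc
BAX: CTCaagcgcatcGGGGACgaa
BAK1: CTCgccatcatcGGGGACgac
PMAIP1: CTCaggagatttGGAGACaaa
BID: CTCgcccaggtcGGGGACagc
BCL2L11: TTGcggcgtattGGAGACgag
BBC3: CTGcggcggatgGCGGACgac
BAD: CTCcggaggatgAGTGACgag

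In 8 of the 10 members the fifth codon encodes glycine, and each of these coding sequences held the pattern once. *BBC3* has the alanine codon GCG at this place and *BAD* the serine codon AGT. The pattern with glycine was present in 13.8% of the 19629 protein-coding genes searched in the same way, and the pattern with glycine, alanine or serine in 35.0%, so that a match by itself does not mark a BH3 protein. In the hg38 assembly, the *BCL2L1* stretch lies at chr20:31721931-31721951 on the minus strand, in exon 2, and the *MCL1* stretch at chr1:150578874-150578894 on the minus strand, in exon 1. The *BCL2* stretch lies at chr18:63318358-63318378 on the minus strand, in exon 2. Those of the effectors lie at chr19:48955787-48955807 on the plus strand, in exon 3 of *BAX*, and at chr6:33575396-33575416 on the minus strand, in exon 4 of *BAK1*. Among the BH3-only genes, the *PMAIP1* stretch is at chr18:59902673-59902693 on the plus strand, in exon 2, and the *BCL2L11* stretch at chr2:111150103-111150123 on the plus strand, in exon 3. The stretches of *BID*, at chr22:17739424-17739444 in exon 4, of *BBC3*, at chr19:47226588-47226608 in exon 3, and of *BAD*, at chr11:64271631-64271651 in exon 3, are all on the minus strand.

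The profile carried the markers of an epithelial line. All 6 epithelial markers had RPKM values between 9.46 for *CLDN4* and 514 for *KRT8*, with *EPCAM* at 182. RPKM scales the count of a gene by its length and by the total of the column. It is used here to compare levels of different genes, and such comparisons depend on the length that is chosen. Of 4 fibroblast markers *COL1A2* and *DCN* had 0 counts and *COL1A1* the highest RPKM, at 0.972. Of 3 leukocyte markers *PTPRC* had 0 counts and *CD68* reached an RPKM of 0.183, and the 3 endothelial markers stayed at or below 0.0967.

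The 10 members together had 16916 counts, or 745 CPM, a unit that scales counts to a fixed column total without regard to gene length. *BCL2L1* was the most abundant of them and *BCL2* the least, although both encode pro-survival proteins. The merged exons of all transcripts were taken as gene length. On this scale 9 of the 10 members had an RPKM of at least 1, against 44.6% of the 19629 protein-coding genes. The exception was *BCL2*. The study regards a gene as expressed from this RPKM, but applied the cutoff across its conditions. Here it was applied to 1 profile of unknown treatment, with lengths from another annotation version. The median RPKM of the members was 14.2 and that of all protein-coding genes 0.589. The list was drawn up by name from well-known apoptosis genes, and its share above the threshold is a description of these 10 genes.

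**Figure D1:**
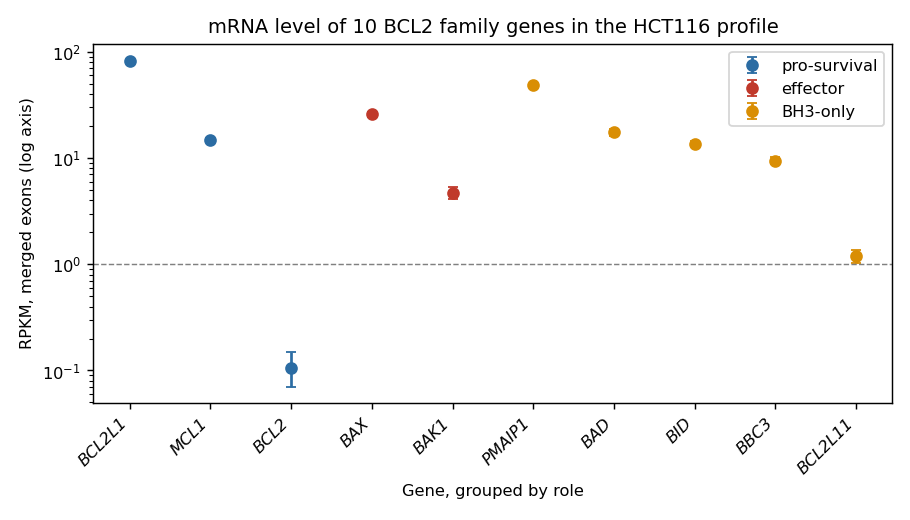
RPKM (log axis) of the 10 members, grouped by role, in the HCT116 profile. Points are the values of the 1 distinct column, bars are exact Poisson 95% intervals of the counts, and the dashed line is an RPKM of 1. *BCL2L1* is highest at 81.3 and *BCL2*, at 0.105, is the only member below the line.

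Among the pro-survival genes, *BCL2L1* encodes BCL-XL and, by alternative splicing, a shorter pro-apoptotic form that counts per gene do not separate. It spans 59538 bp on the minus strand of chromosome 20, from 31664452 to 31723989. *BCL2L1* had 7755 counts, which is 341 CPM (interval 334 to 349) and an RPKM of 81.3 (79.5 to 83.2). This placed it 471st among the protein-coding genes, above 97.6% of them. *MCL1*, on chromosome 1 from 150560895 to 150579738 on the minus strand, encodes a protein and an mRNA known for rapid turnover. It had 2080 counts, or 91.5 CPM (87.7 to 95.6), and an RPKM of 14.7 (14.1 to 15.4). Per length, *MCL1* thus stood at 0.181 times the level of *BCL2L1* (0.172 to 0.190).

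*BCL2*, the founding member of the family, covers 196783 bp of chromosome 18, from 63123346 to 63320128 on the minus strand. It had 30 counts, a CPM of 1.32 (0.891 to 1.88) and an RPKM of 0.105 (0.0706 to 0.149). The transcript was detected, but its level was above that of only 37.3% of protein-coding genes, a comparison that includes 4779 genes at 0 counts. *BCL2L1* was 777 times higher per length (544 to 1152) and 259 times higher by count alone (181 to 383), and with coding sequences as length the ratio was 265 (186 to 393). Most of the pro-survival mRNA was therefore from *BCL2L1*, which held 84.6% of the summed RPKM of the 3 genes, against 15.3% for *MCL1* and 0.109% for *BCL2*.

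The effectors differed from each other as well. *BAX* had 1521 counts and an RPKM of 25.9 (24.6 to 27.2), above 92.4% of protein-coding genes. *BAK1* had 234 counts and an RPKM of 4.66 (4.08 to 5.29), above 74.6% of them. Both were thus in the expressed range, with *BAX* higher than *BAK1* by 5.56 times per length (4.84 to 6.41) and by 6.50 times by count (5.66 to 7.49). The size of the difference depended on the length used for *BAX*, whose merged exons, at 2587 bases, are 3.25 times as long as its canonical transcript of 795 bases, while the corresponding lengths of *BAK1* are 2212 and 2170. With the canonical transcripts *BAX* was 17.7 times higher than *BAK1* (15.5 to 20.4). A processed pseudogene, *BAK1P1*, had 13 counts, and how reads that match both copies were counted is not given in the sources used here.

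The BH3-only members covered a wide range. *PMAIP1* encodes NOXA, which binds MCL1 in particular, and is a compact gene of 4310 bp on chromosome 18, from 59899996 to 59904305 on the plus strand. It had 2392 counts and an RPKM of 48.2 (46.2 to 50.1), the second highest of all 10 members and above 95.9% of protein-coding genes. *PMAIP1* was 3.27 times higher than *MCL1* per length (3.09 to 3.47), 2.39 times (2.25 to 2.54) with canonical transcripts and 7.45 times (7.03 to 7.91) with coding sequences as length. By count alone the ratio was 1.15 (1.08 to 1.22).

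*BAD*, whose product binds BCL-2 and BCL-XL and is held inactive by survival signalling through phosphorylation, had 677 counts and an RPKM of 17.4 (16.2 to 18.8). *BID*, whose product is cleaved by caspase 8 and connects death receptors with mitochondria, had 1365 counts and an RPKM of 13.6 (12.9 to 14.3). *BBC3*, which encodes PUMA and lies on chromosome 19, had 680 counts and an RPKM of 9.40 (8.70 to 10.1). The counts of *BAD* and *BBC3* were thus nearly equal, with a ratio of *BBC3* to *BAD* of 1.00 (0.902 to 1.12), whereas per length *BBC3* stood at 0.539 times *BAD* (0.484 to 0.600), because its merged exons are longer, at 3185 against 1708 bases. With coding sequences as length this ratio was 0.874 (0.785 to 0.974).

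*BCL2L11*, which encodes BIM, a BH3-only protein able to bind every pro-survival member, had the lowest level of the 5 BH3-only members. It had 182 counts and an RPKM of 1.19 (1.02 to 1.37). This is above 57.0% of protein-coding genes, but above only 43.2% of those with at least 1 count. *PMAIP1* was 40.5 times higher per length (34.9 to 47.4) and 13.1 times higher by count alone (11.3 to 15.4). Of the summed RPKM of the 5 BH3-only genes, *PMAIP1* held 53.6%, *BAD* 19.4%, *BID* 15.1%, *BBC3* 10.5% and *BCL2L11* 1.32%.

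**Figure D2:**
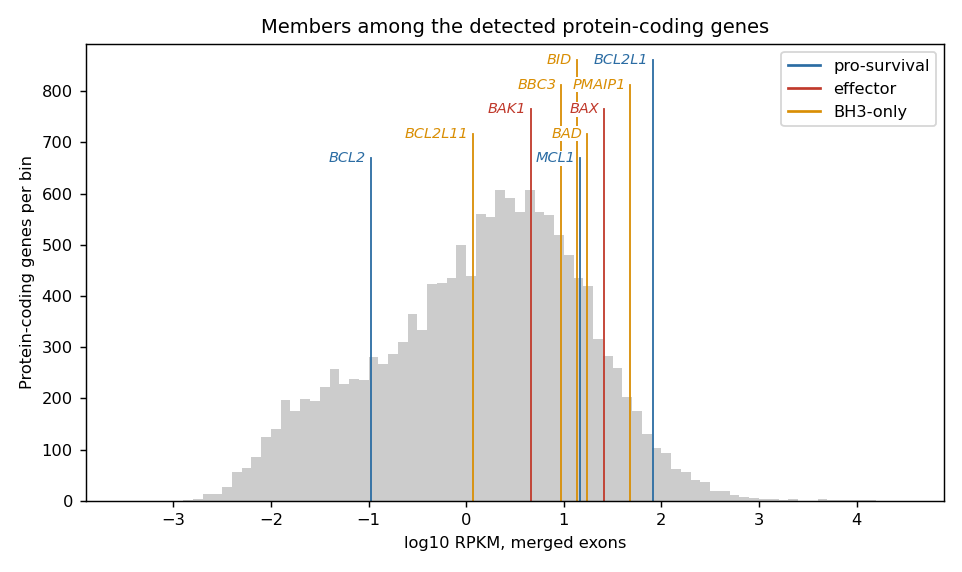
Number of protein-coding genes in bins of log10 RPKM (grey, genes with at least 1 count) with the position of each member as a coloured line. *BCL2L1* and *PMAIP1* lie in the upper tail, with *BCL2L1* above 97.6% of all protein-coding genes, and *BCL2* lies in the lower part of the distribution.

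From highest to lowest RPKM with merged exons, the order was *BCL2L1*, *PMAIP1*, *BAX*, *BAD*, *MCL1*, *BID*, *BBC3*, *BAK1*, *BCL2L11* and *BCL2*. In each of the 9 pairs of neighbours the ratio of the levels had an interval above 1, without adjustment for the number of pairs. The closest pair was *MCL1* and *BID*, with a ratio of 1.08 (1.01 to 1.16), followed by *BAD* and *MCL1* with 1.19 (1.09 to 1.29). The pairs were formed by sorting on the same counts, so each ratio is above 1 by construction, and the intervals do not allow for this. Whether differences of this size exceed the spread between cultures could not be examined.

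The order of the upper 6 members depended on the length that was used. With canonical transcripts *BAX* moved above *PMAIP1*, by 1.52 times (1.42 to 1.62), and *BID* above *MCL1*, by 1.19 times (1.11 to 1.28). With the coding sequence alone *PMAIP1*, whose coding sequence has only 162 nt, moved above *BCL2L1*, by 1.33 times (1.27 to 1.39), although reads from the untranslated parts of the mRNA are also counted. On this scale *BAK1* and *BCL2L11* could not be told apart, with a ratio of 1.21 (0.990 to 1.47). The ranks of *BBC3*, *BAK1*, *BCL2L11* and *BCL2*, which are 7 to 10, were the same for merged exons, canonical transcripts and coding sequences. The number of members with an RPKM of at least 1 was 9 with canonical transcripts, against 49.1% of protein-coding genes, and 10 with coding sequences, against 55.5%. All 10 members had a CPM of at least 1, as did 58% of protein-coding genes.

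**Figure D3:**
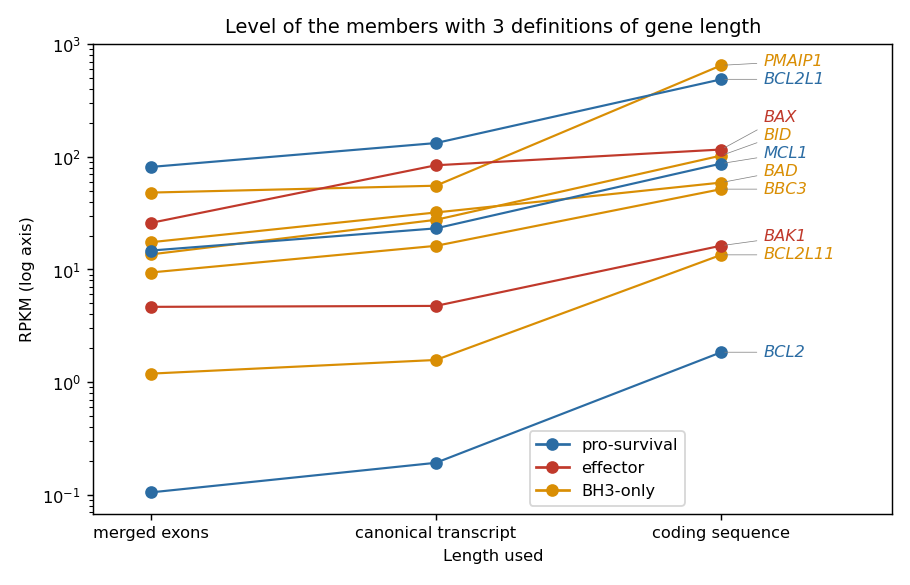
RPKM (log axis) of each member calculated with the merged exons of all transcripts, the canonical transcript or the coding sequence as gene length, coloured by role. The lines of *BAX* and *PMAIP1* cross between the first and the second length, *PMAIP1* crosses *BCL2L1* between the second and the third, and *BCL2* is lowest with all of them.

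Summed by role, the 3 pro-survival genes had an RPKM of 96.1, the 5 BH3-only genes 89.8 and the 2 effectors 30.5. These sums are 44.4% (43.6 to 45.2), 41.5% (40.7 to 42.3) and 14.1% (13.5 to 14.7) of the summed level of the 10 members. Pro-survival mRNA exceeded effector mRNA by 3.15 times (2.99 to 3.31) and BH3-only mRNA by 1.07 times (1.03 to 1.11). The first of these ratios stayed above 1 with every length, at 1.75 (1.66 to 1.85) for canonical transcripts and 4.36 (4.14 to 4.58) for coding sequences. The second did not keep its direction, being 1.17 (1.13 to 1.22) for canonical transcripts and 0.658 (0.634 to 0.683) for coding sequences. Leaving out *MCL1*, a pro-survival gene, can only lower this ratio, and without *MCL1* it was 0.907 (0.875 to 0.940). No BH3-only gene was left out in turn. By CPM, without regard to length, the pro-survival genes had 434, the BH3-only genes 233 and the effectors 77.2. The sums rest on few genes, since *BCL2L1*, *BAX* and *PMAIP1* held 84.6%, 84.8% and 53.6% of the RPKM of their roles.

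**Figure D4:**
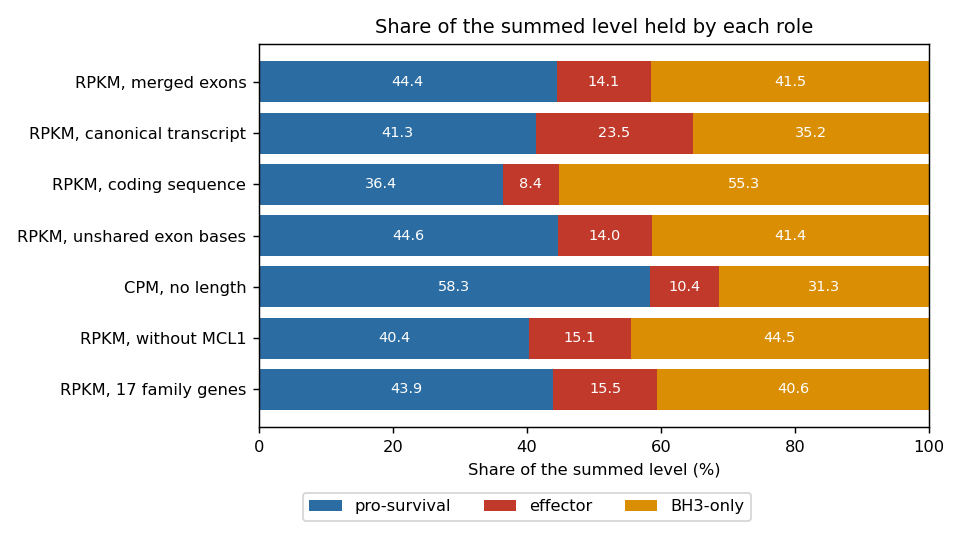
Share (%) of the summed level held by pro-survival, effector and BH3-only genes under each way of summing. The pro-survival share is 44.4% with merged exons and 58.3% by CPM, and the BH3-only share is the larger one with coding sequences, at 55.3%. It is also the larger one, at 44.5%, without *MCL1*, where only a pro-survival gene was left out.

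Of 7 other genes of the family, 3 had an RPKM of at least 1, a share near the 44.6% of all protein-coding genes. *BCL2L2*, which encodes the pro-survival protein BCL-W, had 711 counts and an RPKM of 6.47 (5.999 to 6.959), below *BCL2L1* and *MCL1* and above *BCL2*. It shares exon bases with the readthrough gene *BCL2L2-PABPN1*, and on the 83.2% of its bases that are not shared the RPKM would be 7.77. *BOK*, an effector-like gene, had 346 counts and an RPKM of 5.68 (5.10 to 6.31), and *BIK*, a BH3-only gene, 105 counts and 4.86 (3.97 to 5.88). With merged exons the levels of *BOK* and *BIK* were thus near that of *BAK1*. They lay further apart with coding sequences as length, at 23.9 for *BOK*, 9.63 for *BIK* and 16.3 for *BAK1*.

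*HRK*, a BH3-only gene known from neurons, had 35 counts and an RPKM of 0.225. The pro-survival genes *BCL2L10* and *BCL2A1* had 2 counts and 1 count, and *BMF*, a BH3-only gene, had 0 counts. A gene observed at 0 counts may have a level of up to 0.132 CPM, taking 3 counts of the total as the limit, and the levels of *BCL2L10* and *BCL2A1*, which lie within it, were not compared with others. Of the genes named for BCL2 homology, *BCL2L12* had an RPKM of 31.8, *BCL2L13* 4.58 and *BCL2L15* 0.0532, and *BCL2L14* had 0 counts.

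Downstream of the family, the transcript of cytochrome c was abundant, whereas those of its partners in the apoptosome had an RPKM below 1 with merged exons as length. *CYCS*, which encodes cytochrome c, had 12232 counts and an RPKM of 93.0 (91.3 to 94.6). *APAF1*, the scaffold that cytochrome c activates, had an RPKM of 0.737 (0.616 to 0.876), and *CASP9*, the initiator caspase recruited to it, 0.476 (0.361 to 0.617). With coding sequences as length the values were above 1, at 1.53 for *APAF1* and 2.01 for *CASP9*. *CASP6*, which encodes a caspase that acts after it, had an RPKM of 6.41 (5.69 to 7.20). Cytochrome c has many processed pseudogenes, so its count is uncertain where reads match several copies.

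The voltage-dependent anion channels of the outer membrane, some of which bind BAK and BCL-XL, had RPKM values of 154 for *VDAC1*, 70.1 for *VDAC2* and 41.4 for *VDAC3*. Of the proteins released together with cytochrome c, *HTRA2* had an RPKM of 5.73 and *DIABLO* 0.620. The value of *DIABLO* depended on the length, since its merged exons are 4.73 times as long as its canonical transcript. With the canonical transcript the RPKM was 2.93, and with the coding sequence 6.02. Of its exon bases 68.5% are not shared with another gene, and on these the RPKM would be 0.905. The inhibitors of apoptosis, which restrain caspases, ranged from 0.306 for *BIRC3* through 3.06 for *XIAP* and 3.38 for *BIRC2* to 87.8 for *BIRC5*, which encodes survivin and is also needed for cell division. In all, 15 of the 22 further apoptosis genes described here had an RPKM of at least 1, against 44.6% of protein-coding genes, and the median of the 22 was 4.65, against 0.589.

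**Figure D5:**
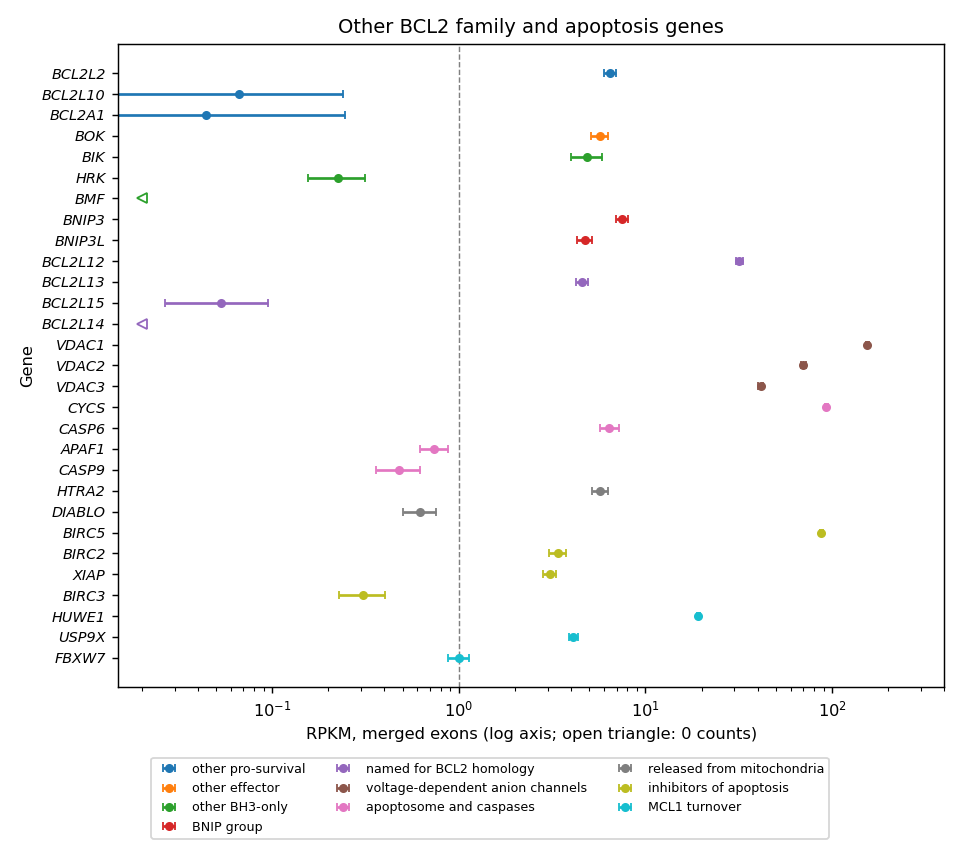
RPKM (log axis) of 7 further BCL2 family genes and 22 other apoptosis genes, coloured by list. Points are values of the 1 distinct column, bars are exact Poisson 95% intervals, the dashed line is an RPKM of 1 and open triangles mark genes with 0 counts. *VDAC1*, *CYCS* and *BIRC5* lie at the right, whereas *APAF1* and *CASP9* lie left of the line.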

How the data were processed

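The authors mapped single-end reads of poly(A)-selected, strand-specific libraries to hg38 and rRNA with ContextMap 2.7.9, using BWA, and featureCounts then gave strand-specific counts of reads for the genes of Gencode version 25. The deposited values are raw counts without normalization. Columns were assigned to samples by name, and the DMSO_Rep1 column was used for the profile, since all 12 columns are identical. No second copy of the table was examined, and how the columns came to be identical is not known.

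Gene IDs were matched without version suffix to GENCODE version 44 (56948 of 58037 IDs, with 99.8% of the counts). All 10 members carry another ID version there than in the table, so lengths may differ from those behind the counts. CPM was computed from the column total and RPKM from the merged exons. Mitochondrial genes held 10.4% of the counts. Exact Poisson intervals were used for levels, exact conditional binomial intervals for ratios of genes, and normal approximations from Poisson variances for sums. The scripts, in Python 3.11.15 with scipy 1.17.1, were tested on simulated data. No test was run, because there is 1 sample. The text names all members and the genes of lists chosen, like the members, with earlier results of these data known, and a few list genes are not reported here.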

Additional observations from a re-analysis of the deposited data

How the results depend on the processing

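No paired analysis was possible because the 12 columns are identical. Leaving out a replicate was not run for the same reason. The shares of the summed RPKM held by pro-survival, effector and BH3-only members were 44.4%, 14.1% and 41.5% with merged exons. They became 41.3%, 23.5% and 35.2% with canonical transcripts, and 36.4%, 8.35% and 55.3% with coding sequences. By CPM they were 58.3%, 10.4% and 31.3%, and without *MCL1* 40.4%, 15.1% and 44.5%. With all 17 family genes the effector share was 15.5% and the BH3-only share 40.6%, while the pro-survival share stayed within its counting interval. With exon bases not shared with another gene, all 3 shares stayed within their intervals. *MCL1* shares bases with *ADAMTSL4-AS1*, which had 228 counts, and its RPKM became 15.5 on unshared bases. Leaving mitochondrial genes out of the total raised every RPKM by the same factor of 1.12. A length fixes only the scale of a gene, so these shifts follow from its construction. Among the 10 members, depth limits the value of *BCL2* most, at 30 counts.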

Other observations

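Genes that act on the MCL1 protein after translation were expressed to different degrees in the profile. *HUWE1*, which encodes a ubiquitin ligase of MCL1, had 7759 counts and an RPKM of 19.2 (18.8 to 19.6). *USP9X*, which encodes a deubiquitinase that stabilizes it, had an RPKM of 4.10 (3.89 to 4.33), and *FBXW7*, the substrate receptor of another ligase, 0.998 (0.879 to 1.13). By count *HUWE1* stood next to *BCL2L1*, with 7755, but its merged exons are longer.

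The related genes *BNIP3* and *BNIP3L*, which are known for their part in the removal of mitochondria under low oxygen, had RPKM values of 7.53 (6.98 to 8.11) and 4.73 (4.30 to 5.19).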
